A study of Mus musculus with 6 samples.

Results

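The genes described here encode receptors of the ErbB family and the EGF-like growth factors that bind them, in cells from colonic tumors of mice. The 10 genes were chosen by name, with earlier results of these data known. They are the receptors Egfr, Erbb2 and Erbb3, and the ligands Areg, Ereg, Tgfa, Hbegf, Btc, Epgn and Nrg1. All 10 were measured, among 21959 genes in all. Their identifiers in the table are, in the same order, ENSMUSG00000020122.13, ENSMUSG00000062312.5, ENSMUSG00000018166.8, ENSMUSG00000029378.4, ENSMUSG00000029377.4, ENSMUSG00000029999.11, ENSMUSG00000024486.5, ENSMUSG00000082361.3, ENSMUSG00000035020.8 and ENSMUSG00000062991.6.

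ErbB receptors are tyrosine kinases that pair when a ligand binds, and the pairs pass signals through adaptor proteins to the Ras-Erk and phosphatidylinositol 3-kinase pathways. The ligands are made as membrane-bound precursors, and proteases of the Adam family release them from the cell surface. In the intestinal epithelium this signaling drives proliferation and repair, and it is a drug target in colorectal cancer.

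The study asked how transcription changes when Group I Paks, kinases that act below Rac and Cdc42, are inhibited in tumor cells that arise from loss of Apc. Adenomas of each genotype gave 3 lines of primary cells. PID- cells carried the transgene CDX2P-NLS-Cre and the allele APC Δ/+ (labelled as mice 1, 2 and 3), and PID+ cells carried the allele ROSA26-PID in addition (mice 4, 7 and 26). RNA was sequenced after poly A selection. Both genotypes carried a heterozygous deletion of Apc, made by a Cre recombinase under the CDX2 promoter, which is active in intestinal tissue. In PID+ cells the same recombinase switched on a GST fusion of the Pak inhibitor domain (PID), with an eGFP reporter, from the Rosa26 locus. Normal and untreated are the labels' words for the PID- samples, although both groups are tumor cells. They also number the PID- mice otherwise than the paper numbers its PID- lines. The Cre and Apc lines of mice were C57BL6/J, and the age at which the adenomas were taken for culture is not stated beside the cell lines. No row of the table stands for the transgene, and the labels were not checked on it.

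Expression was given as FPKM, the number of fragments scaled by transcript length and by library size. The authors merged the 3 sets of reads of a condition, so each gene has 1 pooled FPKM per genotype, with an interval from CuffDiff's error model. The labels name 3 mice per condition, whereas the methods call the sets of reads replicated sequencing runs. No difference below has a replicate check, and no test over samples could be made. The intervals were wide: where FPKM was at least 10, the median distance from the value to the upper bound was 74.5% of the value for PID+ and 73.5% for PID-. Each change is the log2 ratio of PID+ over PID- after 1 was added to both FPKM, which makes the changes of low genes look smaller than they are.

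All 3 receptors were higher in PID+ cells, whereas 5 of the 7 ligands were lower, among them all 4 ligand genes of the cluster on chromosome 5. The ligands Tgfa and Hbegf were higher, as the receptors were. Of the 11480 genes whose mean FPKM was at least 1, 49.4% were higher in PID+ cells. The direction of Erbb2, Tgfa and Hbegf turned when the conditions were scaled to equal Gapdh. That scaling moved the median of all genes whose mean FPKM was at least 1 from -0.01 to -0.57, and relative to that median these 3 genes were still higher, by 0.47, 0.51 and 0.33. Epgn, the least abundant ligand, was 0.31 above that median under this scaling, but the added 1 is large beside its FPKM. Its change therefore hardly moved (-0.19 to -0.26), and its place beside that median decides nothing. Before scaling, its FPKM was 2.09 times lower in PID+ cells.

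In PID+ cells, Ereg and Nrg1 were lower by at least 3-fold on this scale, 2 of 10 genes, against 3.42% of the 11035 genes that reached an FPKM of 2 in a condition. No member was at least 3-fold higher, against 2.08% of the same genes. At a threshold of 2-fold, Btc joined the lower genes, which gives 3 of 10 against 7.03% of the 11785 genes that reached an FPKM of 1 in a condition. Erbb3 was at least 2-fold higher, 1 of 10 against 6.16%, but not when Gapdh was made equal. Epgn, below an FPKM of 1 in both conditions, is counted in the 10 but could not enter either background. Only the other 9 members are therefore directly comparable with these shares. The intervals of the conditions overlapped for all 10 members, and 1.35% of the 11785 genes had intervals apart. The median change of the 10 members was 0.09, beside -0.01 over all 11480 genes whose mean FPKM reached 1, and it was -0.11 with a pseudocount of 0.1 and -0.25 with equal Gapdh. Without Epgn, the member that stayed below that mean, the median of the other 9 was 0.37. The sign of the median therefore depended on these choices. The median was 0.74 for the 3 receptors and -0.60 for the 7 ligands.

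**Figure D1:**
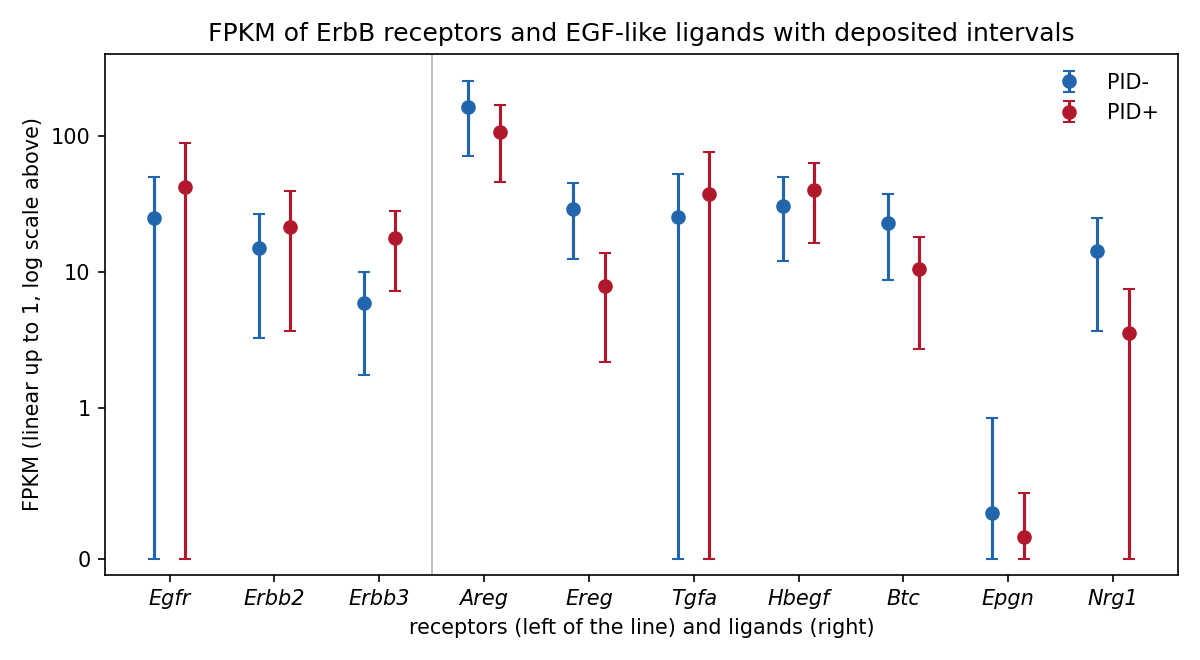
Pooled FPKM of each receptor and ligand in PID- cells (blue) and PID+ cells (red), with the deposited intervals as bars, on an axis that is linear up to 1 and logarithmic above. The 3 receptors are higher in PID+ cells (Erbb2 not after scaling to equal Gapdh), Ereg, Btc and Nrg1 are lower, and the intervals of the conditions overlap for every gene.

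Egfr, the receptor of most of these ligands, was the most abundant receptor in both conditions. Its FPKM was 42.3 in PID+ cells (interval 0 to 89.0) and 24.9 in PID- cells (interval 0 to 49.8), a log2 change of 0.74, or 0.14 with equal Gapdh. It lies on the plus strand of chromosome 11 (GRCm38, 16752203 to 16918158). Both intervals reached 0, so the level itself was poorly fixed in either genotype.

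Erbb2 has no known ligand of its own and acts as the preferred partner of the other receptors. Its FPKM was 21.6 in PID+ cells (interval 3.72 to 39.4) and 15.0 in PID- cells (interval 3.28 to 26.8), a log2 change of 0.49, or -0.10 with equal Gapdh. The PID- interval lay almost wholly within the PID+ interval. The gene is on the plus strand of the same chromosome (98412470 to 98437716), and its exons overlap those of Mien1 on the other strand. The library kit does not mark strand, so reads in that overlap cannot be told apart. Mien1 spans 98437708 to 98438991, so the overlap is only a few bases long. The FPKM of Mien1 itself was 42.2 (PID+) and 48.2 (PID-).

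Erbb3 binds neuregulins but has little kinase activity, so it signals through its partner. Its FPKM was 17.7 in PID+ cells (interval 7.32 to 28.1) and 5.88 in PID- cells (interval 1.76 to 10.01), a log2 change of 1.44. Of the 3 receptors it differed most. The FPKM themselves differed 3.01 times, but with the pseudocount the change lay under 3-fold. The PID+ lower bound of 7.32 was under the PID- upper bound of 10.01, so the intervals overlapped at their ends. Erbb3 lies on the minus strand of chromosome 10 (128567523 to 128589652). The change kept its sign under all 6 alternatives, between 0.86 and 1.57.

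Among the ligands, Areg (amphiregulin) was the most abundant in both conditions. Its FPKM was 107 in PID+ cells (interval 45.8 to 169) and 163 in PID- cells (interval 71.2 to 254), a log2 change of -0.60. With equal Gapdh the change was -1.22, past 2-fold. The FPKM put Areg at percentile 95.4 of the genes listed above 0 in PID+ cells and at percentile 97.3 in PID- cells. In PID- cells the intervals of all 6 other ligands lay below that of Areg, and in PID+ cells those of 4 did, the exceptions being Tgfa and Hbegf. Areg was therefore the leading ligand in both genotypes, by a smaller distance in PID+ cells.

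Ereg (epiregulin), which binds Egfr and Erbb4, differed more. Its FPKM was 7.96 in PID+ cells (interval 2.18 to 13.8) and 29.0 in PID- cells (interval 12.5 to 45.5), a log2 change of -1.74. It was 3.64 times lower in PID+ cells and moved from percentile 79.4 to percentile 52.7 of the genes listed above 0. The PID+ interval ended just above the start of the PID- interval. The change was between -2.28 and -1.74 under the alternatives. An antisense gene, Gm19610, shares exonic sequence with Ereg on the other strand, so reads within the shared sequence cannot be told apart either.

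Btc (betacellulin) binds the same receptors as epiregulin. Its FPKM was 10.5 in PID+ cells (interval 2.72 to 18.2) and 23.1 in PID- cells (interval 8.78 to 37.3), a log2 change of -1.07. Epgn (epigen) was the least abundant ligand, with 0.149 in PID+ cells (interval 0 to 0.440) and 0.310 in PID- cells (interval 0 to 0.936). Its log2 change was -0.19, or -0.72 with a pseudocount of 0.1, and its FPKM was 2.09 times lower in PID+ cells. Relative to the median of all genes its change was 0.31 with equal Gapdh, which the added 1 fixes and which gives no direction. Epgn was the only member with an FPKM below 1 in both conditions.

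Nrg1 (neuregulin 1) is a ligand of Erbb3 and Erbb4 and the only neuregulin among the members. Its FPKM was 3.55 in PID+ cells (interval 0 to 7.49) and 14.4 in PID- cells (interval 3.67 to 25.0), a log2 change of -1.75. It was 4.04 times lower in PID+ cells, the lowest ratio of the 10 members. The receptor Erbb3 and its ligand Nrg1 thus differed in opposite directions. The gene spans 31814551 to 32884029 on the minus strand of chromosome 8 and has 18 annotated transcripts, which the pooled FPKM does not separate. A noncoding gene, Gm26578, overlaps its exons on the other strand.

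Tgfa (transforming growth factor alpha) binds Egfr. Its FPKM was 37.6 in PID+ cells (interval 0 to 76.2) and 25.5 in PID- cells (interval 0 to 52.6), a log2 change of 0.54, or -0.06 with equal Gapdh. Tgfa lies on chromosome 6 (plus strand, 86195223 to 86275719), where the median change of 413 genes whose mean FPKM reached 5 was 0.34. This was the highest median of 20 chromosomes with at least 100 such genes, and relative to it the change of Tgfa was 0.20. Gapdh, the gene of the alternative scaling, is on the same chromosome, and stood at 2570 FPKM (PID+) and 1666 FPKM (PID-). Noncoding Gm43917 overlaps the exons of Tgfa on the other strand.

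Hbegf (heparin-binding EGF-like growth factor) binds Egfr and Erbb4. Its FPKM was 40.0 in PID+ cells (interval 16.5 to 63.6) and 30.8 in PID- cells (interval 12.0 to 49.7), a log2 change of 0.37, or -0.24 with equal Gapdh. It had the smallest ratio between the conditions of all members, 1.30.

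The make-up of the ligand pool differed between the genotypes. The 7 ligands together had 207 FPKM (PID+) and 286 FPKM (PID-), and the 3 receptors 81.6 and 45.8. The ratio of summed ligand to summed receptor FPKM was 2.54 in PID+ cells and 6.24 in PID- cells. This ratio is free of the scaling between conditions, as are the shares that follow. Areg held 51.8% of the ligand sum in PID+ cells and 57.0% in PID- cells, and Ereg held 3.85% and 10.1%. Tgfa and Hbegf together held 37.5% in PID+ cells and 19.7% in PID- cells. The order in PID- cells was Areg, Hbegf, Ereg, Tgfa, Btc, Nrg1, Epgn, whereas in PID+ cells Ereg stood after Tgfa and Btc. Within the receptors, Egfr held 51.9% in PID+ and 54.3% in PID- cells, Erbb2 26.4% and 32.9%, and Erbb3 21.7% and 12.8%. In bulk samples, fewer cells of a type and less RNA per cell cannot be told apart.

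Areg, Ereg and Erbb3 have a single annotated transcript, which allowed an estimate of the fragments behind their values. Low FPKM of such genes, multiplied by the transcript length less 190 bases, fell on steps, and 91.7% of 674 values in PID+ cells and 91.4% of 652 in PID- cells lay within 0.1 of a whole number of steps. Taking a step as 1 fragment, Areg rested on about 7490 fragments in PID+ and 15700 in PID- cells, Ereg on 2140 and 10700, and Erbb3 on 7030 and 3220. Counting error is thus small beside the deposited intervals for these genes, but it says nothing of the spread between mice.

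Areg, Ereg, Btc and Epgn lie side by side on chromosome 5, and no other gene of the table lies between them. The cluster runs from Epgn (plus strand, 91027464 to 91035215) over Ereg (plus strand, 91074622 to 91093646) and Areg (plus strand, 91139599 to 91148432) to Btc (minus strand, 91357261 to 91402994), a stretch of 376 kb. Areg, Ereg and Btc were lower in PID+ cells under each scaling. Epgn was lower as well, but its FPKM was below 1 in both conditions, with intervals that start at 0. Together the sum of the 4 was 126 FPKM (PID+) and 215 FPKM (PID-). The chromosome as a whole did not differ in this way, with a median change of 0.01 over 635 genes.

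Within 1 Mb of the start of Areg, 25 genes of the table start, with Epgn, Ereg and Btc among them. Of these, 19, including Ereg and Btc, reached an FPKM of 1 in a condition, with a median change of -0.03. They include CXC chemokine genes, which differed in both directions. Ppbp had 2321 FPKM in PID+ cells against 231 (log2 change 3.32), and its intervals were apart. Cxcl3 was also higher (52.3 against 17.2, log2 change 1.55), whereas Cxcl2 (6.07 against 19.8, -1.56) and Cxcl15 (0.143 against 2.61, -1.66) were lower. On either side of the cluster, the nearest genes were lower too. Before Epgn these were Mthfd2l (-0.03), Cxcl2, Cxcl1 (-0.56) and Cxcl15, and after Btc they were Parm1 (-0.755) and Rchy1 (-0.46). Genes with higher values lay beyond these, among them Cxcl3 and Ppbp before Cxcl15, and Odaph (0.82) after Rchy1. Whether the ligands shared a change of the region was not tested.

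**Figure D2:**
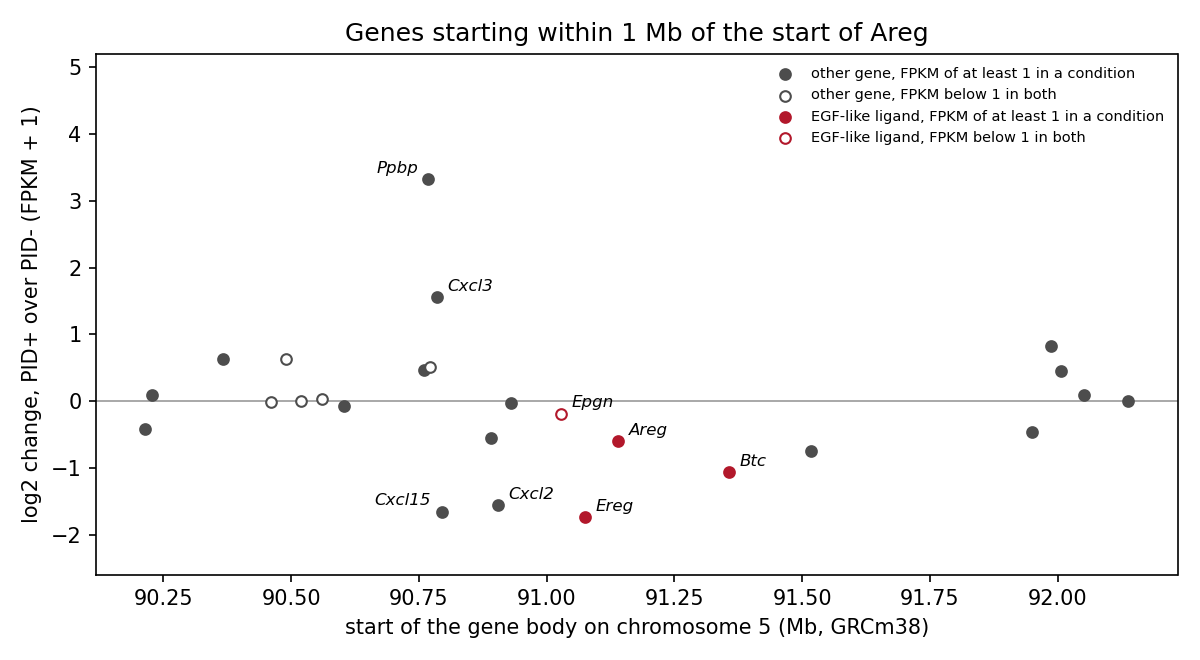
Log2 change between PID+ and PID- cells of the genes that start within 1 Mb of the start of Areg, by position on chromosome 5 (GRCm38); EGF-like ligands are red, and hollow points have an FPKM below 1 in both conditions. Epgn, Ereg, Areg and Btc all lie below 0, as do the nearest genes on either side, while Ppbp and Cxcl3 lie above it.

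Around the members outside the cluster, the medians of the neighbours stayed closer to 0 than the members themselves. Epgn in the cluster differed in this, at -0.19 beside a median of -0.25 for its neighbours. Near Erbb2, 38 neighbours that reached an FPKM of 1 had a median of 0.10, with 5 at least 2-fold higher and 2 lower. The higher ones were Srcin1, Epop, Grb7, Cdc6 and Tns4, and the lower ones Thra and Igfbp4. Grb7, an adaptor that binds ErbB receptors, starts 8678 bases beyond the end of Erbb2. Near Erbb3, 45 such neighbours had a median of -0.04, with Prim1, Gls2, Timeless, Stat2 and Il23a at least 2-fold higher and Mmp19, Gdf11 and Itga7 at least 2-fold lower. Near Egfr, none of 6 neighbours differed 2-fold in either direction. Near Nrg1, Fut10 was the 1 of 4 that was at least 2-fold lower. Near Tgfa the median of 25 neighbours was 0.33, close to that of the whole chromosome, with Nat8f4 at least 2-fold higher and Antxr1 lower. Near Hbegf, Ecscr was at least 2-fold higher and Cxxc5 lower among 23 neighbours.

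The promoters of 2 cluster genes that were lower in PID+ cells, Areg and Btc, and of Egfr, which was higher, are shown so that their sequences can be compared. RefSeq promoters were matched by symbol for 6 of the 10 members (Egfr, Erbb2, Areg, Tgfa, Btc and Epgn; not Ereg, Erbb3, Hbegf and Nrg1). Each sequence is the 250 bases before the start of the gene in RefSeq (GRCm38.p6), 5′ to 3′ on the strand of the gene. They are chr5:91139349-91139598 (plus strand) for Areg, chr5:91402995-91403244 (minus strand) for Btc and chr11:16751953-16752202 (plus strand) for Egfr. Capitals mark matches to the motifs named after the sequences.
Areg: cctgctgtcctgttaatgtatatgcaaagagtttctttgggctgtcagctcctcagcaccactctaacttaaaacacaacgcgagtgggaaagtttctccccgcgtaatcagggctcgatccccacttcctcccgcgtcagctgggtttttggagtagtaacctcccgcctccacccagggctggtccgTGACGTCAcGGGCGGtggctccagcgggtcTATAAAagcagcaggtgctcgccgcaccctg
Btc: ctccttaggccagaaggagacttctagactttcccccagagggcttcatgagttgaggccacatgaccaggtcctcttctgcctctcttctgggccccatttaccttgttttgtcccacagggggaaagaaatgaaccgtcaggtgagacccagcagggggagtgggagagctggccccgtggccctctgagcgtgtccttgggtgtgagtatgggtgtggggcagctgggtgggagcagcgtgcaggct
Egfr: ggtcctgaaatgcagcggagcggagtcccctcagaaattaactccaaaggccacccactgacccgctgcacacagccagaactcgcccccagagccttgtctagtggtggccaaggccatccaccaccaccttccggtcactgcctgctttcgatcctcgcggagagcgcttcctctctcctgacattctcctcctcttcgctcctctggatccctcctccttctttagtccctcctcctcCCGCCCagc
The letters searched on both strands were the AP-1 motif TGAGTCA, the cAMP response element TGACGTCA, the TATA box TATAAA, the GC box GGGCGG, the TEAD motif GGAATG and the Tcf/Lef motifs CTTTGAT and CTTTGAA. The window of Areg held a cAMP response element at -61, a GC box at -52 and a TATA box at -31, counted from the same start, and these matches do not overlap. The window of Btc held none of the motifs, and that of Egfr held a GC box at -9. Of 32851 promoters, 1.55% held the cAMP response element in the same window, 12.4% the TATA box and 32.7% the GC box. AP-1, TEAD and Tcf/Lef letters were in 4.46%, 12.6% and 7.48% of all promoters and in none of these 3. Among the windows not printed, that of Epgn, another lower gene of the cluster, held a TATA box, that of Erbb2 a TEAD match and that of Tgfa GC boxes. The windows of Epgn and Erbb2 reach into exons of the Gencode annotation, whose starts lie further upstream, and no positions are given for them. The windows of Areg and Epgn shared the TATA box letters. CG dinucleotides numbered 15 in Areg, 4 in Btc and 11 in Egfr, beside a median of 6 over all promoters.

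Of 5 further genes of the family, 4 stayed below an FPKM of 1 in both conditions. Erbb4, the fourth receptor, and Nrg3 were listed at 0 in both conditions. The FPKM of Egf was 0.120 (PID+) and 0.296 (PID-), and that of Nrg2 was 0.00522 and 0.0414. Nrg4 led these 5 genes, at 2.02 (PID+) and 3.41 (PID-), and in PID+ cells it was not far below Nrg1. With 1 added to the FPKM, their median change was -0.05 and none differed 2-fold, although the FPKM of Egf itself was 2.48 times lower in PID+ cells and that of Nrg2 7.94 times. Egfr, Erbb2 and Erbb3 were therefore the receptors of the family listed above 0.

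Among 8 genes for the release of ligands, 1 passed 2-fold on the higher side in PID+ cells and none on the lower side. This was Adam12, a protease that can release Hbegf, at 57.6 FPKM (interval 0.573 to 115) against 27.5 (interval 2.08 to 53.0) and a log2 change of 1.04. Adam12 was under 2-fold with equal total FPKM (0.94), with equal Gapdh (0.43) and with the chromosome median subtracted (0.79). On the lower side, Adam9 had 56.7 (PID+) and 110 (PID-), a change of -0.95. With equal total FPKM, 0 genes of the list were at least 2-fold higher and 1 was lower. With equal Gapdh, 0 were higher and 2 lower, Adam9 (-1.56) and Adam10 (-1.30). Adam17, the main protease for Areg, Ereg and Tgfa, had 29.3 and 31.6. The median of the list was 0.11, or -0.48 with equal Gapdh. That scaling moved the median of all genes whose mean FPKM was at least 1 to -0.57. Counts of lower genes under it, here and in the lists below, include that shift.

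Among 13 adaptors and proximal effectors, 10 had a lower FPKM in PID+ cells and 3 a higher one, with a median of -0.21. Grb7 stood apart from the rest of the list: its FPKM was 26.8 in PID+ cells (interval 7.61 to 46.1) and 7.54 in PID- cells (interval 0.321 to 14.8), for a log2 change of 1.71. It was the only gene of the list at least 3-fold higher, and none was at least 2-fold lower. With equal Gapdh, Grb7 was at 1.11, under 3-fold, and 5 adaptors were at least 2-fold lower, beside a median of -0.57 over all genes. The adaptor Grb2 had 48.0 and 44.9, and its change of 0.09 turned negative with equal total FPKM and with equal Gapdh, as did that of Crk. Grb7 is thus the only adaptor of the list that was at least 2-fold higher. Erbb3 was higher too, as was Erbb2, the neighbour of Grb7, the latter not with equal Gapdh. Mien1, the gene between Erbb2 and Grb7, was lower (42.2 FPKM in PID+ against 48.2 in PID- cells).

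Among 10 receptor inhibitors and ubiquitin ligases, 8 were lower in PID+ cells, and the median was -0.24. The Cbl family of ubiquitin ligases, which mark receptors for degradation, differed in both directions. Cblc reached 35.6 FPKM in PID+ cells (interval 7.13 to 64.1) and 14.7 in PID- cells (interval 0 to 29.5), for a log2 change of 1.22. Cblb had 3.34 (interval 0.624 to 6.06) and 8.31 (interval 2.99 to 13.6), a change of -1.10. Cblc was under 2-fold with equal Gapdh (0.62) and with the chromosome median subtracted (0.98), and Cblb was so with the latter (-0.60). Cbl differed little, with 12.1 and 13.5. Errfi1, an inhibitor of Egfr that is itself made in response to it, stood at 30.7 (PID+) and 55.3 (PID-), a change of -0.83. With equal Gapdh, 0 genes of the list were at least 2-fold higher and 4 were lower (Errfi1, Cblb, Rnf41 and Socs5). The median of the list was then -0.78.

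Of 5 partners and chaperones of Erbb2, Muc4, a membrane mucin that binds the receptor, was lower in PID+ cells by at least 2-fold. Its FPKM was 4.98 (interval 0.612 to 9.34) against 13.6 (interval 2.77 to 24.4), a log2 change of -1.29, or -0.78 and under 2-fold with the chromosome median subtracted. With equal Gapdh, Erbin joined it, so that 2 genes of the list were at least 2-fold lower. The median of the list was -0.04, and it was 0.04 with the chromosome median subtracted.

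Genes that respond to Erk, the kinase below these receptors, went both ways. Of 13, 7 were higher and 6 lower in PID+ cells (Fosl1, Etv4 and Spry2 turned lower with equal Gapdh, Spry2 also with equal total FPKM and with the chromosome median subtracted, where Etv5 turned higher), and the median was 0.08, or -0.01 with equal total FPKM and -0.46 with equal Gapdh. At least 2-fold higher were Dusp5, an Erk phosphatase, at 52.2 FPKM (interval 22.5 to 81.8) against 14.8 (interval 4.41 to 25.2) and a log2 change of 1.75, and Fos, with 10.4 (interval 1.61 to 19.2) against 3.52 (interval 0 to 7.44) and a change of 1.34, or 0.78 with equal Gapdh. At least 2-fold lower were Egr1, with 7.22 (interval 1.37 to 13.1) against 21.4 (interval 8.07 to 34.8) and a change of -1.45, and Spry4, with 1.06 (interval 0 to 2.48) against 3.32 (interval 0.0983 to 6.54) and a change of -1.07. With equal Gapdh, 1 gene of the list was at least 2-fold higher and 4 were lower, as Ier3 (-1.32) and Dusp4 (-1.42) joined the lower ones. The immediate early genes Fos and Egr1 thus differed in opposite directions. No common direction of the list accompanied the receptors or the ligands.

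For comparison, 17 receptor tyrosine kinases outside the family had a median of -0.05, and 7 of them were below an FPKM of 1 in both conditions. Over the 6 with a mean FPKM of 5 or more the median was 0.67, near that of the 3 ErbB receptors. Of the 17, 8 were higher and 9 lower in PID+ cells (Ddr1, Kit, Ret and Fgfr4 turned lower with equal Gapdh, and with the chromosome median subtracted Ret turned lower and Insr higher). Met (58.4 against 24.9, log2 change 1.20), Tyro3 (8.06 against 3.40, 1.04) and Mst1r (2.03 against 0.0420, 1.54) were at least 2-fold higher. Met and Tyro3 were under 2-fold with equal Gapdh (0.59 and 0.50) and with the chromosome median subtracted (0.86 and 0.96), Tyro3 also with equal total FPKM (0.95). Fgfr1 was at least 3-fold lower, with 0.454 in PID+ and 7.34 in PID- cells and a change of -2.52. With a pseudocount of 0.1, 3 of the 17 were at least 2-fold higher and 4 lower. Of these 4, 3 were at least 3-fold lower, among them Mertk (-2.61) and Pdgfrb (-2.52). The counts were 1 higher and 2 lower with equal Gapdh, as with the chromosome median subtracted. The genes of all these lists that differed at least 2-fold kept their direction under each scaling, but not all stayed past 2-fold, as given above. None of these lists held a gene whose intervals were apart.

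**Figure D3:**
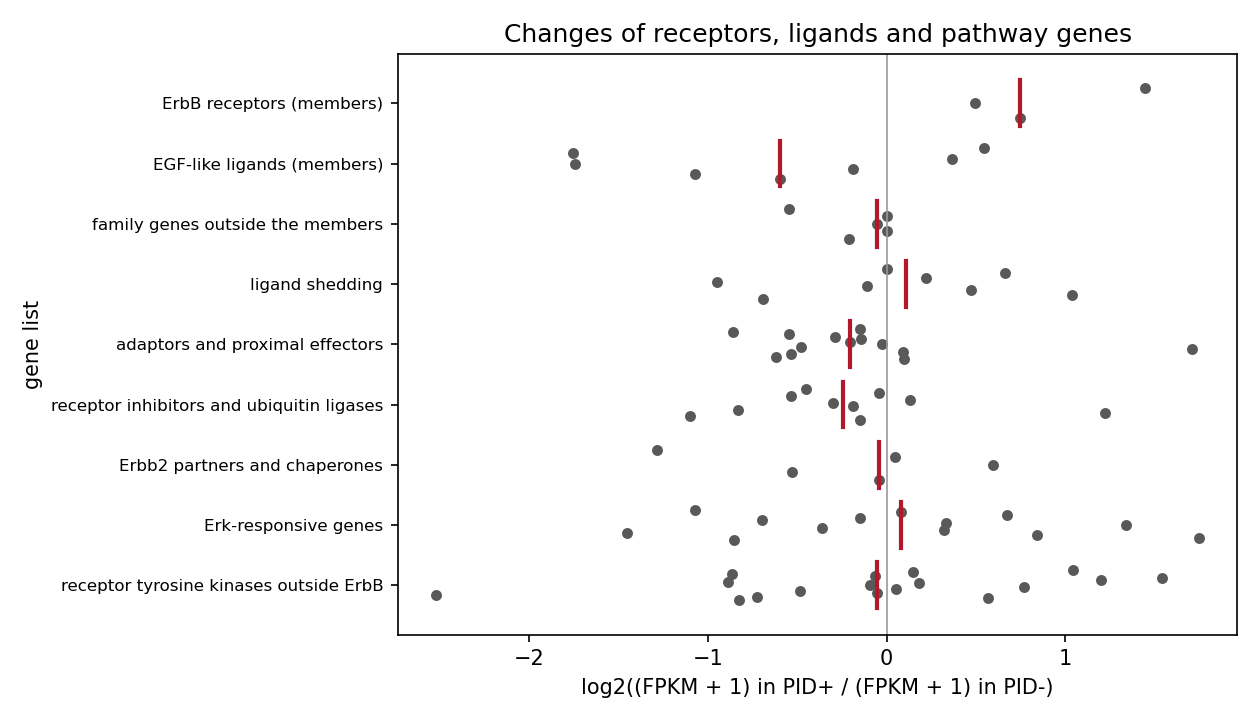
Log2 change between PID+ and PID- cells of each gene (points) in the receptor, ligand and pathway lists, with the median of each list as a red bar. The bar lies at 0.74 for the 3 receptors and at -0.60 for the 7 ligands (the direction of Erbb2, Tgfa and Hbegf turned with equal Gapdh), and between -0.24 and 0.11 for the other lists, where the 6 other receptor tyrosine kinases with a mean FPKM of 5 or more had a median of 0.67.

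Markers of cell types differed between the genotypes as well. Of 9 epithelial markers, 8 were higher in PID+ cells, and their sum was 9083 FPKM (PID+) and 4965 FPKM (PID-). Krt18 was the most abundant in PID+ cells and Krt19, whose direction turned with equal Gapdh, in PID- cells. Epcam had 401 and 124, whereas the intestinal factor Cdx2 had 0.542 and 8.04 and Vil1 had 0.175 and 0.0614. Krt8, Krt18, Krt19 and Epcam mark epithelium in general. Of the markers closer to the intestine, Krt20 had 158 and 73.5 and was present in both genotypes, Cdx2 was above 1 in PID- cells but not in PID+ cells, and Vil1 was below 1 in both. Of 9 mesenchymal markers, 8 were lower in PID+ cells and Lum was listed at 0 in both. Their sum was 7.39 FPKM (PID+) and 43.9 FPKM (PID-), with Acta2 the most abundant in PID+ cells and Col1a2 in PID- cells, and Dcn and Thy1 were listed at 0 in PID+ cells. Their part in the differences of the ligands and receptors was not tested.

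Markers of blood and vessel cells were mostly near 0. Of 8 leukocyte markers, 7 were below 1 in both conditions, Cd3e was listed at 0 in both and Lyz2 in PID+ cells, and the sums of 22.1 in PID+ and 17.2 in PID- cells were mostly Cd68. All 6 mast cell markers were below 1, with sums of 0.749 and 0.409 and Kit the most abundant, and Cpa3, Tpsb2, Fcer1a and Ms4a2 were listed at 0 in both. Of 5 platelet markers, Ppbp made up nearly all of the sums of 2323 and 233, while Pf4 had 0.947 and 0.372 and Gp9 was listed at 0 in PID+ cells. Of 6 endothelial markers, 4 were below 1 in both conditions, and the sums of 18.7 and 1.43 were mostly Ptprb in PID+ cells (14.7 against 0.0244) and Kdr in PID- cells. Ptprc, Cpa3, Pf4 and Pecam1 were thus below 1 in both genotypes, while Cd68, Ppbp, Itga2b and Kdr were above 1 in both and Ptprb in PID+ cells. The platelet marker Itga2b had 1.19 (PID+) and 2.08 (PID-), lower in PID+ cells, unlike Ppbp. Kit, Pdgfra and Pdgfrb are also among the 17 receptor tyrosine kinases.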

How the data were processed

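The authors cleaned the reads with cutadapt, checked them with FastQC, aligned them with TopHat and Bowtie2 to GRCm38.p3 with an annotation of protein coding genes, and gave the 3 read sets of a condition to the aligner as 1. The deposited table holds the FPKM that CuffDiff gave for 21966 genes in 2 conditions, with interval bounds. Per the labels, its condition treated is PID+ and its condition untreated is PID-. The release of the annotation is not given in the sources used here. Genes without status OK in both conditions (7) were left out. Symbols and positions came from Gencode M21 (GRCm38); 232 genes had no symbol.

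The pseudocount was 1. Members and lists were chosen with earlier results of these data known. All members and Gapdh were named. So were the genes of the lists that differed at least 2-fold (otherwise their largest and smallest changes). Neighbours within 1 Mb were named if they differed at least 2-fold with an FPKM of at least 1. Other genes of the lists, and other genes beside the cluster on chromosome 5, were named after their values were seen. As alternatives, the pseudocount was 0.1; PID+ values were scaled to the same total, upper quartile or Gapdh level as PID-; the median of the chromosome was subtracted; genes were limited to a mean FPKM of 5 or more; or intervals had to be apart. The calculations were tested on simulated data. Python 3.11.15, numpy 2.4.6, pandas 2.3.3 and matplotlib 3.10.9 were used.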

Additional observations from a re-analysis of the deposited data

How the results depend on the processing

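Of 59 values of members under the alternatives, 54 moved by less than 1.5-fold. The sign was the same under every alternative for 7 members, and it turned with equal Gapdh for Erbb2 (-0.10), Tgfa (-0.06) and Hbegf (-0.24). Under that scaling Egfr was 0.14 in place of 0.74 and Areg -1.22 in place of -0.60. With equal Gapdh, no member was at least 2-fold higher (0 in place of 1), 4 in place of 3 were at least 2-fold lower and 3 in place of 2 at least 3-fold lower, the median of the genes for the release of ligands turned from 0.11 to -0.48, that of adaptors was -0.80 in place of -0.21, and that of Erbb2 partners and chaperones was -0.66 in place of -0.04. The scaling itself moved the median of all genes by -0.56. Over all genes, 662 in place of 377 were then at least 3-fold lower. The larger counts of lower genes were thus not a trait of the members alone. The share of all genes at 2-fold was not computed under this scaling. With intervals that do not overlap as the criterion, 0 members were lower in place of 2 at 3-fold.

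Over all genes, 229 were at least 3-fold higher and 377 lower in PID+ cells, so that 37.8% were higher. With equal Gapdh the numbers were 76 and 662 (10.3% higher), and with a pseudocount of 0.1 they were 621 and 795. With a mean FPKM of at least 5, which leaves fewer genes, they were 144 and 221, and the median of receptor tyrosine kinases outside the family was 0.67 in place of -0.05. That filter removed Epgn and all 5 family genes outside the members, so those have no value there. Leaving out a sample was not possible because each condition is 1 pooled value. No paired analysis was possible because the table holds no values per sample.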
